A study of Homo sapiens with 9 samples.

Results

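The genes described here are 9 cyclins and cyclin-dependent kinases (CDKs) that drive the cell division cycle: CCND1, CCND3, CDK4 and CDK6 of G1 phase, CDK2 and CCNA2 of S phase, and CDK1, CCNB1 and CCNB2 of G2 and mitosis. They were found by symbol in the deposited table, where each name matched 1 of 46846 features, and all 9 passed the minimum mean value of 10 with which 16846 features were tested. Polyadenylated RNA had been sequenced from MDA-MB-231, an established line from a triple-negative breast tumour, in 3 libraries per group. The groups were DMSO with a labelled time of 12 h, indisulam at 3.3 µM for 12 h, and pladienolide B at 10 nM for 6 h, each begun a day after seeding per the labels. Indisulam makes the DCAF15 ubiquitin ligase bind and destroy the splicing factor RBM39, and pladienolide B blocks the SF3b complex, which recognises the branch point of introns. No transgene or engineered allele is named in the labels, all groups are the same line, and no label says that replicas were grown separately. The p-values therefore reflect the spread among these libraries, which may be technical.

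CDKs are protein kinases that act only with a bound cyclin. Cyclin D with CDK4 or CDK6 phosphorylates the retinoblastoma protein in G1 and so frees E2F transcription factors, cyclin A2 with CDK2 acts in S phase, and cyclin B with CDK1 triggers mitosis. The genes of cyclin A2, cyclin B and CDK1 are transcribed mainly in late S phase and G2, and their proteins are removed by ubiquitin ligases, whereas CDK4, CDK6 and CDK2 are expressed through the cycle and cyclin D1 follows growth signals.

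The libraries held between 59312100 and 83910831 reads. After the authors' scaling the total value per library was 60435010 to 61583500 in DMSO, 62895850 to 63690600 after indisulam and 82366490 to 87510750 after pladienolide B, so that levels under pladienolide B depend on how libraries are scaled to each other. The 9 genes together took 0.144% to 0.148% of all reads in DMSO. Their share was 0.142% to 0.150% after indisulam and 0.0914% to 0.0972% after pladienolide B. With every library scaled to the same total, the median log2 change of all genes with pladienolide B against DMSO was −0.48. VIM, a mesenchymal intermediate filament gene that is high in this line, stood at a mean of 127792 in DMSO, while the hormone receptor genes ESR1 and PGR were at means of 1.23 and 0.559, below the 2.48 to 3.87 that 3 reads are worth. CDKN2A, an inhibitor of CDK4 and CDK6 that is known to be deleted in MDA-MB-231, and its neighbour CDKN2B had 0 reads in all 9 libraries, which allows values of up to 2.48 to 3.87.

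In DMSO the levels are compared between genes only as value per kilobase of merged exons of GENCODE v29. Cyclin B1 stood highest, at 10809 ± 825 per kilobase (SD, n = 3), followed by CDK1 (3808 ± 183), CCNA2 (3788 ± 238), CCND1 (3392 ± 118), CDK4 (2452 ± 77.0) and CCNB2 (2201 ± 85.0). CDK6 (1233 ± 71.3), CCND3 (1076 ± 28.3) and CDK2 (1001 ± 45.3) were lowest. The values of CDK1 and CCNA2 overlapped, and those of every other pair of neighbours in this order did not. With pladienolide B the order per kilobase was CCNB1 at 9136 ± 892, CDK1 at 5128 ± 221, CCND1 at 4103 ± 341, CDK4 at 3756 ± 42.2, CCNA2 at 2472 ± 70.9, CCNB2 at 1738 ± 117, CDK2 at 942 ± 48.7, CCND3 at 864 ± 38.2 and CDK6 at 555 ± 50.5. CDK6 thus went from rank 7 to rank 9 and CCNA2 from rank 3 to rank 5, and no neighbours overlapped. The deposited gene models can differ from GENCODE's, which shifts these levels per kilobase but not the changes below.

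**Figure D1:**
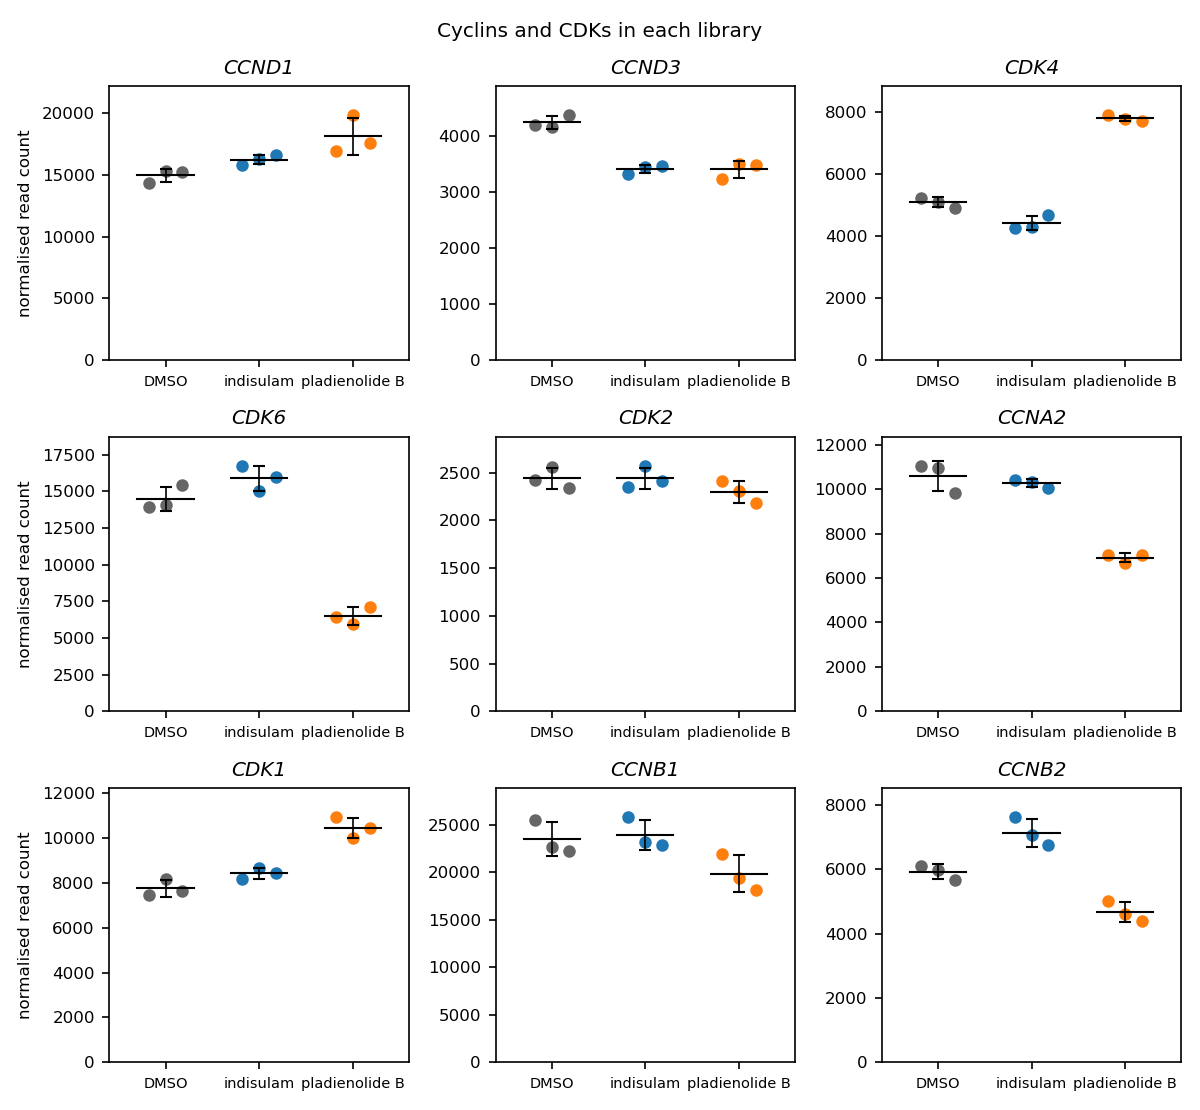
Normalised read count of each cyclin and CDK gene (vertical axis, from 0) in the 3 libraries of each group (horizontal axis); points are libraries, bars are group means and whiskers are 1 SD. CDK6 lies between 13902 and 15426 in DMSO and between 5942 and 7122 with pladienolide B, and CDK2 overlaps between all 3 groups.

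With indisulam 1 of these 9 genes was called higher and 2 lower. CCND3 and CDK4 fell, CCNB2 rose, and the other 6 did not pass (limma with Benjamini-Hochberg adjustment over 16846 genes at 0.05). Over all genes 26.9% passed, 14.5% higher and 12.4% lower. Indisulam and DMSO libraries were fully separate in 4 of the 9 genes, against 48.4% of all genes. The median log2 change of the 9 was 0.03, beside 0.05 for all genes tested. Pladienolide B moved 8 of the 9 as deposited, where 69.8% of all genes passed (34.3% higher, 35.5% lower). CDK6, CCNA2, CCNB2, CCND3 and CCNB1 fell. CDK4, CDK1 and CCND1 rose, of which CCND1 turned lower with the same total per library or quantile normalisation and CDK1 did not pass with the same total. Values did not overlap in 8 of the 9, against 71.8% of all genes, and the median was −0.24 beside −0.01 for all genes. Drug and time differed together in that comparison and cannot be told apart. In RNA from whole cultures, fewer cells in a phase of the cycle and less RNA per cell cannot be told apart either. Scaling every library to the same total moved the median of all genes from −0.01 to −0.48. With it 1 of the 9 was higher with pladienolide B (CDK4) and 7 were lower, beside 16.2% and 53.9% of all genes. With quantile normalisation 2 were higher and 6 lower, beside 35.9% and 32.2% of all genes. Equal totals put the 5 genes that fell at −1.63 for CDK6, −1.09 for CCNA2, −0.81 for CCNB2, −0.79 for CCND3 and −0.72 for CCNB1.

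**Figure D2:**
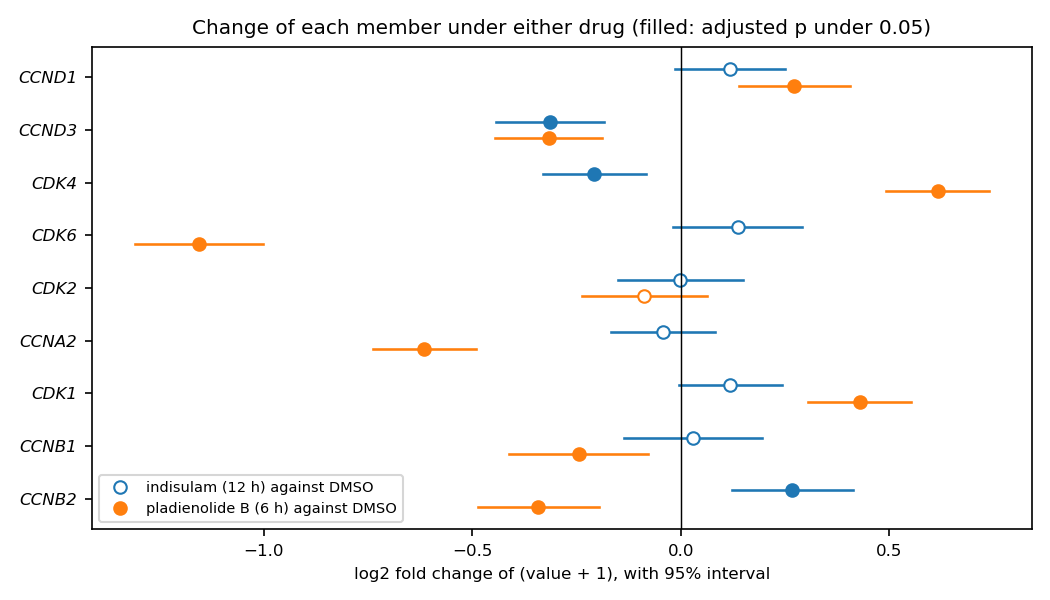
Log2 fold change of each gene against DMSO (horizontal axis) with its 95% interval, for indisulam in blue and pladienolide B in orange; filled points passed at an adjusted p under 0.05. With indisulam 3 points are filled and all lie between −0.31 and 0.27, whereas with pladienolide B they reach from −1.15 for CDK6 to 0.62 for CDK4.

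The paired G1 kinases went opposite ways under pladienolide B. CDK6 (GSHG0040831, hg38 chromosome 7, 92604921 to 92836573) encodes a kinase of cyclin D that is prominent in breast cancer cells of basal type. Its normalised counts were 13902, 14065 and 15426 in DMSO, 16702, 15012 and 15981 with indisulam, and 6459, 5942 and 7122 with pladienolide B. All pladienolide B libraries were far below every other library, while the indisulam libraries overlapped DMSO. The log2 fold change was −1.15 ± 0.07 with pladienolide B (limma adjusted p = 7.4e-09), a level 2.23-fold lower, where ± is the SE beside log2 values. With indisulam it was 0.14 ± 0.07 (limma adjusted p = 0.18, 95% interval −0.02 to 0.29). A limma fit with the replicate number as a block gave the same indisulam change an adjusted p of 0.0437. CDK4 (GSHG0010285, chromosome 12, 57747727 to 57752382), the other partner of cyclin D, was at 5242, 5106 and 4923 in DMSO, 4276, 4288 and 4675 with indisulam and 7893, 7781 and 7721 with pladienolide B. The 3 groups of CDK4 values did not overlap each other. CDK4 was 1.53-fold higher with pladienolide B (0.62 ± 0.06, limma adjusted p = 3.82e-07), and 0.14 on the log2 scale with the same total per library. With indisulam it fell by 0.21 ± 0.06 on the log2 scale (limma adjusted p = 0.0172), and it missed the threshold when single libraries were left out, at changes of similar size. These were −0.19 without DMSO replicate 1 (adjusted p = 0.0728), −0.20 without DMSO replicate 2 (0.0584), −0.18 without indisulam replicate 1 (0.0653) and −0.19 without indisulam replicate 2 (0.0728).

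A ratio within a library is the same under any scaling by 1 factor per library, though not under quantile normalisation. The ratio of CDK6 to CDK4 lay between 2.65 and 3.13 in DMSO, between 3.42 and 3.91 with indisulam and between 0.764 and 0.922 with pladienolide B. The log2 ratio was thus 0.34 above DMSO with indisulam and 1.77 below it with pladienolide B, where the ratio was 3.41-fold lower, with no overlap between any groups. Quantile normalisation gave −1.84 for pladienolide B. Of the 12 ratio tests made (4 gene pairs in 3 comparisons), both gave p = 0.1 in a two-sided exact permutation test (0.109 after adjustment over the 12), and 3 against 3 libraries cannot give less.

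The D-type cyclins differed as well. CCND1 (GSHG0006467, chromosome 11, 69641156 to 69654474) encodes cyclin D1, the activator of CDK4 and CDK6 most often amplified in breast cancer. Its values were 14344, 15258 and 15223 in DMSO, 15810, 16265 and 16561 with indisulam and 16928, 19775 and 17522 with pladienolide B. The 3 groups were in ascending order with no overlap. As deposited CCND1 was 1.21-fold higher with pladienolide B (0.27 ± 0.06, limma adjusted p = 0.00132), but quantile normalisation put it at −0.14 (adjusted p = 0.0203) and equal library totals at −0.20 (adjusted p = 0.00378). Relative to the median of all genes it was 0.28 higher as deposited and 0.28 with the same total, but −0.19 with quantile normalisation. With indisulam the change of 0.12 ± 0.06 did not pass (limma adjusted p = 0.177, 95% interval −0.01 to 0.25). CCND1 overlaps 1399 bases of LTO1 on the opposite strand, whose mean over the 9 libraries was 2443 beside 16409 for CCND1, and LTO1 itself went from 3106 to 663 with pladienolide B. Without a stated strand setting of the counting, reads of that stretch cannot be told apart.

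CCND3 (GSHG0037982, chromosome 6, 41934934 to 42048894), cyclin D3, fell under both drugs. It was at 4198, 4155 and 4366 in DMSO, 3326, 3443 and 3468 with indisulam and 3233, 3500 and 3487 with pladienolide B. Every treated library was below every DMSO library, and the treated groups overlapped each other. The log2 change was −0.31 ± 0.06 with indisulam (limma adjusted p = 0.00178) and −0.32 ± 0.06 with pladienolide B (adjusted p = 0.000308). Both comparisons use the same DMSO libraries. The difference between the drugs was −0.0031 with a 95% interval of −0.13 to 0.13 as deposited. With the same total per library it was −0.42 (limma adjusted p = 3.14e-05), where the median of all genes was −0.40. Relative to the median of all genes it was −0.02 with the same total and −0.01 as deposited. The ratio of CCND3 to CCND1 was 0.272 to 0.293 in DMSO, 0.209 to 0.212 after indisulam and 0.177 to 0.199 after pladienolide B, so CCND3 was lower relative to CCND1 in every treated library than in any DMSO library (exact permutation p = 0.1 for each drug, 0.109 adjusted). The log2 ratio changed by −0.59 with pladienolide B as deposited and by −0.20 with quantile normalisation.

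CDK2 (GSHG0009121, chromosome 12, 55966818 to 55972789), the S phase kinase of cyclins E and A, did not pass with either drug. It was at 2420, 2561 and 2344 in DMSO, 2347, 2565 and 2410 with indisulam, and 2414, 2305 and 2177 with pladienolide B. All 3 groups overlapped. The changes were −0.00085 ± 0.07 with indisulam (95% interval −0.15 to 0.15, limma adjusted p = 0.995) and −0.09 ± 0.07 with pladienolide B (−0.24 to 0.06, adjusted p = 0.278). The latter passed as lower with TMM scaling (−0.17, adjusted p = 0.0403), with edgeR on recovered reads (−0.17, 0.0428) and with the same total per library (−0.56, 5.73e-06).

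Cyclin A2, cyclin B1, cyclin B2 and CDK1 are textbook genes of the late cell cycle. Their promoters bind the factor NF-Y at CCAAT boxes and repressor or activator complexes at a cell cycle homology region (CHR). The CHR was searched for only by the letters TTTGAA, and variants of these letters were not searched for. The promoter windows of these 4 genes are shown because they are known as late cell cycle genes and did not move alike under pladienolide B. Whether the matches bear on the changes was not tested. Each window holds 250 bases before and 50 from the start site in the direction of the gene, from RefSeq on GRCh38.p14, which had windows for 7 of the 9 genes. Capitals mark CCAAT and TTTGAA on either strand, so a match on the opposite strand appears as its reverse complement, and each is a match of letters and no more. Of 2 CDK1 windows the one with more matches is shown.
CCNB1 chr5:69166900-69167199 (+): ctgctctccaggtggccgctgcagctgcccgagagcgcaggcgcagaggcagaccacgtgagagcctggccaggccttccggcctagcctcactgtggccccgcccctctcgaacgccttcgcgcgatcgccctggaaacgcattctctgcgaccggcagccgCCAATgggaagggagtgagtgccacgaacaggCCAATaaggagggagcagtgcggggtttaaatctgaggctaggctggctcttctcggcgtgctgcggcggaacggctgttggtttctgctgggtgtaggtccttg
CCNB2 chr15:59104896-59105195 (+): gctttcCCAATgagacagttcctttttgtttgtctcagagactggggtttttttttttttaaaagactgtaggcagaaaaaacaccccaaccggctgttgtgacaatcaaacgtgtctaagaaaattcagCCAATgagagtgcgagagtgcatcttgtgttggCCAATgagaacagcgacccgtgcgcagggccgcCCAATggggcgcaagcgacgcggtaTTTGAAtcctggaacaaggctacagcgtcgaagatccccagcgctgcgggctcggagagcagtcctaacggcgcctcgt
CDK1 chr10:60778228-60778527 (+): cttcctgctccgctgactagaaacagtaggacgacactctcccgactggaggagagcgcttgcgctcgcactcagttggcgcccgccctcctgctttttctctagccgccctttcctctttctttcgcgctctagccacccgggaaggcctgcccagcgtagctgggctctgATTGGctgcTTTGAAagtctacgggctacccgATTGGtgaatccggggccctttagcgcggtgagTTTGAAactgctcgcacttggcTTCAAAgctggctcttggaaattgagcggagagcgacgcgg
CCNA2 chr4:121823834-121824133 (−): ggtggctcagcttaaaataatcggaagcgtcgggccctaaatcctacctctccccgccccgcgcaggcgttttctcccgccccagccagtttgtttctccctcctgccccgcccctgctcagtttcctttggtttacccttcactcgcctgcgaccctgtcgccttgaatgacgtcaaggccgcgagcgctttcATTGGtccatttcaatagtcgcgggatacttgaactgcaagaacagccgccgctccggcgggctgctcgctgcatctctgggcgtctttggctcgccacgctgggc
CCNB1 held 2 CCAAT matches 32 bases apart and no CHR match, and CCNB2 held 4, of which the last 3 were 33 bases apart and lay upstream of 1 CHR match beginning 29 bases before the start. CDK1 held 2 matches of the box on the opposite strand, also 32 bases apart, and 3 of the CHR. CCNA2 held 1 such box on the opposite strand and no TTTGAA match in this window. Absence of these exact letters does not show that CCNA2 or CCNB1 lacks a CHR. Of all 35116 windows in the RefSeq table, 34.6% held the CCAAT box, 10.8% held 2 or more, 15.2% held the CHR letters, and 1.78% held at least 2 boxes with a CHR match. A further CDK1 window at another start held 1 of each, the CDK4 window and both CDK6 windows held neither motif, and of 3 CCND3 windows 2 held a single box.

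CCNA2 (GSHG0033764, chromosome 4, 121816444 to 121823916), cyclin A2, which activates CDK2 and then CDK1, had the largest fall with pladienolide B among these 4 genes, under each of the 4 scalings. Its values were 11021, 10946 and 9833 in DMSO, 10418, 10339 and 10070 with indisulam, and 7026, 6688 and 7037 with pladienolide B. The pladienolide B libraries were below all others, and indisulam overlapped DMSO. CCNA2 was 1.53-fold lower with pladienolide B (−0.61 ± 0.06, limma adjusted p = 4.15e-07) and at −0.04 ± 0.06 with indisulam (adjusted p = 0.627, 95% interval −0.17 to 0.08). It overlaps 578 bases of EXOSC9, an exosome subunit gene on the opposite strand with a mean of 4992, which stood at 4654 in DMSO, 5828 after indisulam and 4495 after pladienolide B.

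CCNB1 (GSHG0034400, chromosome 5, 69167121 to 69178245), cyclin B1, was at 25494, 22652 and 22189 in DMSO, 25754, 23132 and 22866 with indisulam, and 21940, 19355 and 18154 with pladienolide B. The highest pladienolide B library lay just below the lowest DMSO library, and indisulam overlapped DMSO. The fall with pladienolide B was 1.18-fold (−0.24 ± 0.08, limma adjusted p = 0.0119), and it did not pass when DMSO replicate 1 (−0.18, adjusted p = 0.0664) or pladienolide B replicate 3 (−0.18, 0.0533) was left out. Quantile normalisation put it at −0.72 (adjusted p = 1.31e-06) and the same total at −0.72 (2.31e-06). With indisulam the change was 0.03 ± 0.08 (limma adjusted p = 0.818, 95% interval −0.14 to 0.20), and slightly below 0 under the 3 other scalings.

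CCNB2 (GSHG0013776, chromosome 15, 59105121 to 59125050), cyclin B2, was the gene among the 9 that rose with indisulam and fell with pladienolide B. It was at 6123, 5994 and 5677 in DMSO, 7618, 7059 and 6755 with indisulam, and 5025, 4625 and 4404 with pladienolide B. The 3 groups did not overlap. The rise with indisulam was 1.20-fold (0.27 ± 0.07, limma adjusted p = 0.01), a call lost without indisulam replicate 1 (0.22, adjusted p = 0.0514), and the fall with pladienolide B was 1.27-fold (−0.34 ± 0.07, adjusted p = 0.000434). The ratio of CCNB2 to CCNB1 was 0.240 to 0.265 in DMSO, 0.295 to 0.305 with indisulam and 0.229 to 0.243 with pladienolide B. It was 1.18-fold higher with indisulam (exact permutation p = 0.1, 0.109 adjusted), and with pladienolide B it overlapped DMSO (exact permutation p = 0.2). The log2 change of the ratio with pladienolide B was −0.10 as deposited and turned to 0.25 with quantile normalisation.

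CDK1 (GSHG0004124, chromosome 10, 60778331 to 60794852), the mitotic kinase that both B-type cyclins and cyclin A2 activate, went the other way from its cyclins under pladienolide B as deposited. It was at 7448, 8170 and 7652 in DMSO, 8168, 8649 and 8431 with indisulam, and 10906, 10008 and 10423 with pladienolide B. All pladienolide B libraries exceeded all others, and indisulam overlapped DMSO. CDK1 was 1.35-fold higher with pladienolide B (0.43 ± 0.06, limma adjusted p = 1.33e-05). Equal library totals gave −0.04 (adjusted p = 0.525) and quantile normalisation gave 0.15 (0.0352). With indisulam the change was 0.12 ± 0.06 (limma adjusted p = 0.147, 95% interval −0.01 to 0.24). The ratio of CDK2 to CDK1 was 0.306 to 0.325 in DMSO, 0.286 to 0.297 with indisulam and 0.209 to 0.230 with pladienolide B, 1.43-fold lower under the latter and with no overlap between groups (exact permutation p = 0.1, 0.109 adjusted). As a log2 change that is −0.52, and quantile normalisation gave −0.12, with pladienolide B and DMSO libraries overlapping.

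**Figure D3:**
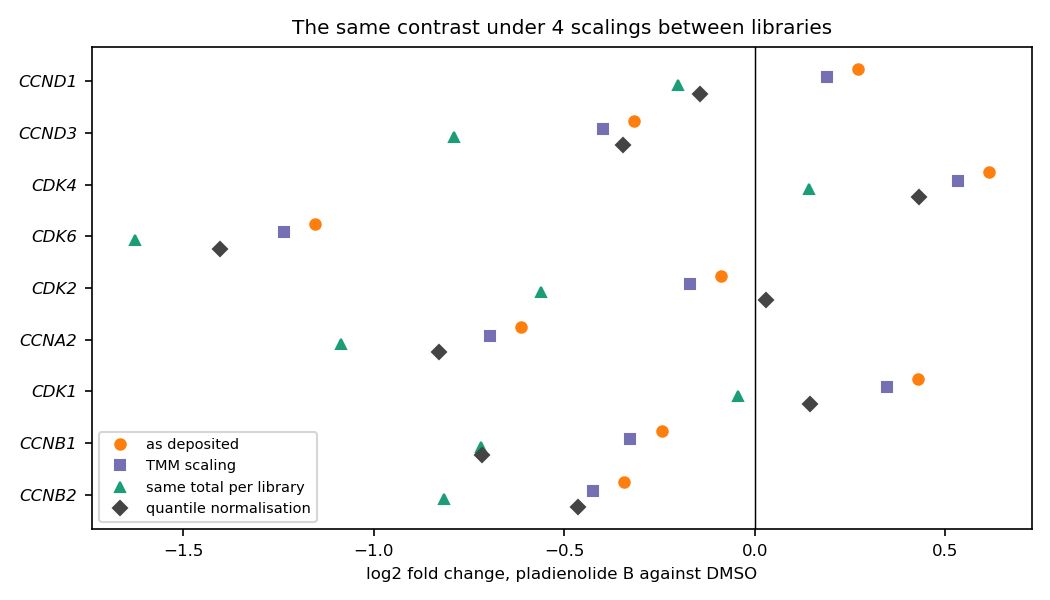
Log2 fold change of each gene with pladienolide B against DMSO (horizontal axis) under the deposited scaling, TMM, the same total per library and quantile normalisation. CDK6, CCNA2, CCNB1, CCNB2 and CCND3 stay below 0 and CDK4 above 0 under these 4 scalings, CCND1 turns from 0.27 to −0.20 and −0.14, CDK1 turns from 0.43 to −0.04, and CDK2 turns from −0.09 to 0.03 with quantile normalisation.

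The direct comparison of pladienolide B with indisulam, in which drug, dose and time differ together, asked whether the responses differed. CDK4 (0.82 ± 0.06), CDK1 (0.31 ± 0.06) and CCND1 (0.15 ± 0.06) were higher with pladienolide B, and CDK6 (−1.29 ± 0.07), CCNB2 (−0.61 ± 0.07), CCNA2 (−0.57 ± 0.06) and CCNB1 (−0.27 ± 0.08) were lower. That is 3 higher and 4 lower of 9, where 70.3% of all genes passed (34.7% higher, 35.6% lower), and 7 of 9 did not overlap, against 71.8% of all genes. For CDK6 and CDK4 the limma adjusted p was 2.85e-09 and 2.39e-08. The CCND1 difference (limma adjusted p = 0.0382) was lost with TMM scaling (0.12, adjusted p = 0.11), edgeR (0.12, 0.105), no filter on low values (0.15, 0.0633), a fit of these groups alone (0.15, 0.0673) and without DMSO replicate 2 (0.15, 0.0537), any indisulam library (0.14 to 0.17, 0.0566 to 0.108) or pladienolide B replicate 2 (0.09, 0.146). It turned to −0.26 with equal library totals and −0.23 with quantile normalisation, and CDK1 turned to −0.11 with equal totals and did not pass with quantile normalisation (0.04, adjusted p = 0.495). With equal totals the median of all genes was −0.40, and relative to it CCND1 was at 0.14 and CDK1 at 0.30.

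The 9 genes differ in structure. By GENCODE v29 the D-type cyclin genes have 4 introns in their longest coding model, CDK4, CDK6, CDK2 and CCNA2 have 7, and CDK1, CCNB1 and CCNB2 have 8. Their deposited spans run from 4.66 kb for CDK4 and 5.97 kb for CDK2 to 114 kb for CCND3 and 232 kb for CDK6. CDK4 and CDK6 share a count of 7 introns, and their spans and their changes under pladienolide B lie at opposite ends of the group. The other members did not run in the order of span. CDK2 at 5.97 kb was at −0.09, CCNA2 at 7.47 kb at −0.61 and CCND3 at 114 kb at −0.32. Whether span or intron count bears on the changes was not tested. Among the 12279 genes tested that had a GENCODE protein-coding model, the median log2 change with pladienolide B was 0.34 in 2521 genes spanning under 10 kb, −0.03 in 3601 genes of 10 to 30 kb, −0.21 in 3965 of 30 to 100 kb, −0.35 in 1373 of 100 to 200 kb and −0.31 in 819 of 200 kb and over. CDK6 lay below the lower quartile of its bin (−1.05) and CCND3 close to the median of its bin. CCNA2, at −0.61, lay below the lower quartile of the shortest genes (−0.38). With indisulam the bin medians lay between 0.01 and 0.07. The bin values are as deposited and were not repeated under other scalings.

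**Figure D4:**
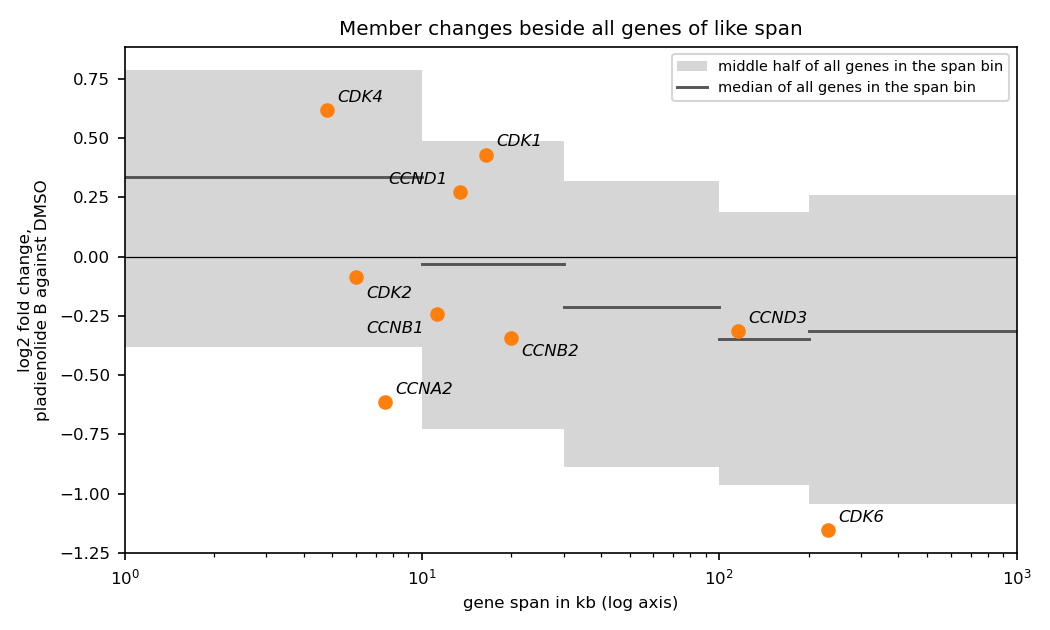
Log2 fold change with pladienolide B against DMSO (vertical axis) against gene span in kb (log horizontal axis); orange points are the 9 genes, grey bands the lower to upper quartile of all genes in a span bin and dark lines the bin medians. CDK6 sits at the right at −1.15, under the band, and CDK4 at the left at 0.62, within it.

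The genes closest to a member in the profile of centred log2 values over the 9 libraries were sought among all tested genes with a symbol. For CDK6 they were GTF2A1, a general transcription factor gene, and TAOK1, a kinase gene, with root mean square differences of 0.06 and 0.06 on the log2 scale and changes of −1.02 and −1.20 with pladienolide B. For CDK4 they were PIN4 and NAP1L1, a nucleosome assembly gene (0.05 and 0.05), though PIN4 overlaps ERCC6L, which has a higher mean. For CCND3 they were WWC3 and NUP98, a nuclear pore gene (0.03 and 0.04). For CCNB2 they were NUMA1, a spindle pole gene, and TBL1X (0.04 and 0.05), and NUMA1 was likewise at 0.29 with indisulam and −0.29 with pladienolide B.

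Other genes of CDK control changed further than the members in places. The counts below stand beside 14.5% of all genes higher and 12.4% lower with indisulam, and 34.3% higher and 35.5% lower with pladienolide B. With pladienolide B those shares were 16.2% and 53.9% with the same total per library, and 35.9% and 32.2% with quantile normalisation. Of 12 other cell cycle cyclins and CDK3, 1 rose and 2 fell with indisulam. CCNG1, an atypical cyclin and p53 target, rose by 0.79 ± 0.12 (limma adjusted p = 0.000454), and the E-type cyclins of the G1/S step, CCNE1 (−0.53 ± 0.13, adjusted p = 0.00737) and CCNE2 (−0.39 ± 0.11, 0.0185), fell. The CCNE2 adjusted p rose to 0.0582, 0.0734 and 0.0863 when DMSO replicate 2, DMSO replicate 3 and indisulam replicate 1 were left out, and CCNE2 and CCNG1 overlap INTS8 and NUDCD2, which have higher means. The 3 of 12 called with indisulam stand beside 26.9% of all genes. With pladienolide B 1 rose and 6 fell, where 69.8% of all genes were called. With the same total 11 fell, and with quantile normalisation 1 rose and 3 fell. CCNF, a cyclin that serves as a ubiquitin ligase receptor, fell from 3329 to 600 (−2.49 ± 0.11, adjusted p = 4.31e-10) and CDK3 from 87.0 to 23.9 (−1.95 ± 0.35), while CCNI rose by 0.27 as deposited but was at −0.20 with the same total.

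Of the 6 CDK inhibitor genes tested, 1 fell with indisulam (26.9% of all genes called), and with pladienolide B 2 rose and 3 fell (69.8% called). With the same total 2 fell with indisulam, and 2 rose and 4 fell with pladienolide B. With pladienolide B CDKN1B, which encodes p27, rose from 3115 to 8673 (1.47 ± 0.08, limma adjusted p = 1.34e-09) and CDKN2C, which encodes an inhibitor of CDK4 and CDK6, from 3811 to 6418 (0.75 ± 0.07, and 0.28 with the same total). CDKN1A, which encodes p21, fell from 4147 to 933 (−2.15 ± 0.09) and CDKN1C, which encodes p57, from 187 to 81.2 (−1.19 ± 0.17). With indisulam CDKN1A was at 3461 (−0.26 ± 0.09, adjusted p = 0.036), which missed the threshold at −0.24 and −0.23 with DMSO replicate 1 or 2 left out (adjusted p = 0.114 and 0.141), and at −0.24 and −0.21 with indisulam replicate 1 or 3 left out (0.117 and 0.152).

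All 11 genes listed under CDK phosphoregulation and adaptors changed with pladienolide B, 3 higher and 8 lower, where 69.8% of all genes were called. With quantile normalisation 1 was higher and 8 lower, and with the same total 2 and 8. WEE1, the kinase that holds CDK1 inactive, rose from 2746 to 6086 (1.15 ± 0.07, limma adjusted p = 5.98e-09). AURKA, a mitotic kinase gene, fell from 11220 to 3090 (−1.86 ± 0.06) and CDC25C, the phosphatase that activates CDK1, from 866 to 237 (−1.86 ± 0.12), although CDC25C (mean 559) overlaps FAM53C (mean 5247). CDC37, a kinase chaperone, was at 0.70 as deposited and did not pass with quantile normalisation (0.07, adjusted p = 0.266). With indisulam 1 rose, the adaptor CKS2 (0.40 ± 0.07, limma adjusted p = 0.00118), and 2 fell, CDC25C (−0.59 ± 0.12) and PKMYT1, an inhibitory kinase of CDK1 that overlaps PAQR4 (−0.42 ± 0.09).

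Of 12 RB and E2F genes, 3 fell with indisulam, where 26.9% of all genes were called and 12.4% lower. RBL1, which encodes p107, fell by 0.73 ± 0.06 on the log2 scale (limma adjusted p = 6.73e-06) and RB1, the substrate of CDK4 and CDK6, from 4497 to 3015 (−0.57 ± 0.08, adjusted p = 0.000265). With TMM scaling, the same total and quantile normalisation 5 fell, where 14.5%, 15.1% and 14.3% of all genes were lower. With quantile normalisation 1 rose, where 14.6% of all genes were higher. With pladienolide B 1 rose and 7 fell (69.8% of all genes called), against 1 and 10 with the same total and 4 and 6 with quantile normalisation. E2F6, a repressor, rose by 0.85 ± 0.10, E2F7 fell (−1.10 ± 0.07), and so did E2F5 (−3.14 ± 0.16), whose mean of 280 stands beside 3646 for the overlapping RBIS. Of 9 genes of factors that act at late cell cycle promoters, 1 fell with indisulam, MYBL2 (B-MYB), from 10162 to 7032 (−0.53 ± 0.09, limma adjusted p = 0.000829). With pladienolide B 2 rose and 5 fell, and with the same total all 9 fell. The MuvB core subunit genes LIN52 (−2.13 ± 0.10) and LIN9 (−2.09 ± 0.10) fell from 1084 to 248 and from 958 to 226. FOXM1 and RBBP4 were at 0.28 and 0.30 as deposited and at −0.19 and −0.17 with the same total.

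Of 25 genes of the ubiquitin ligases that remove cyclins, 3 rose and 7 fell with indisulam (26.9% of all genes called), and 2 and 8, 2 and 8, and 2 and 9 did so with TMM scaling, the same total and quantile normalisation. ANAPC7 (−0.80 ± 0.08, limma adjusted p = 1.76e-05) and ANAPC4 (−0.58 ± 0.12) fell, both subunits of the anaphase-promoting complex. FBXO31, a ligase receptor, and SKP1 rose by 0.53 ± 0.13 and 0.21 ± 0.05, and FBXO31 overlaps MAP1LC3B, which has a higher mean. With pladienolide B 7 rose and 14 fell (69.8% of all genes called), against 4 and 17 with the same total and 10 and 12 with quantile normalisation. FBXO5, the inhibitor of the anaphase-promoting complex, rose from 2747 to 9021 (1.71 ± 0.07, limma adjusted p = 1.59e-10), and the subunit gene ANAPC15 from 2898 to 4839 (0.74 ± 0.08). FZR1, its activator in G1, fell from 3687 to 1022 (−1.85 ± 0.07) and overlaps 34 bases of a feature with a higher mean, and AMBRA1, the receptor for cyclin D, from 1853 to 519 (−1.84 ± 0.08). Of 26 genes of transcription CDKs and other CDKs, 1 rose and 5 fell with indisulam, among them CCNH, the cyclin of CDK7 (−1.36 ± 0.08), and CCNK, the cyclin of CDK12 (−0.43 ± 0.07), which overlap RASA1 and CCDC85C with higher means. CDK12 rose by 0.27 ± 0.07, with an adjusted p of 0.0535 when DMSO replicate 2 and 0.051 when indisulam replicate 3 was left out. With pladienolide B 6 rose and 13 fell, and 2 and 22 with the same total. CCNL1, a cyclin of splicing kinases, rose from 758 to 3280 (2.11 ± 0.10, limma adjusted p = 6.13e-10) and CDK5R1, an activator of CDK5, by 0.93 ± 0.09. CDK8, the Mediator kinase, fell from 707 to 176 (−2.01 ± 0.15) and CDK18 from 52.1 to 19.2 (−1.44 ± 0.39).

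**Figure D5:**
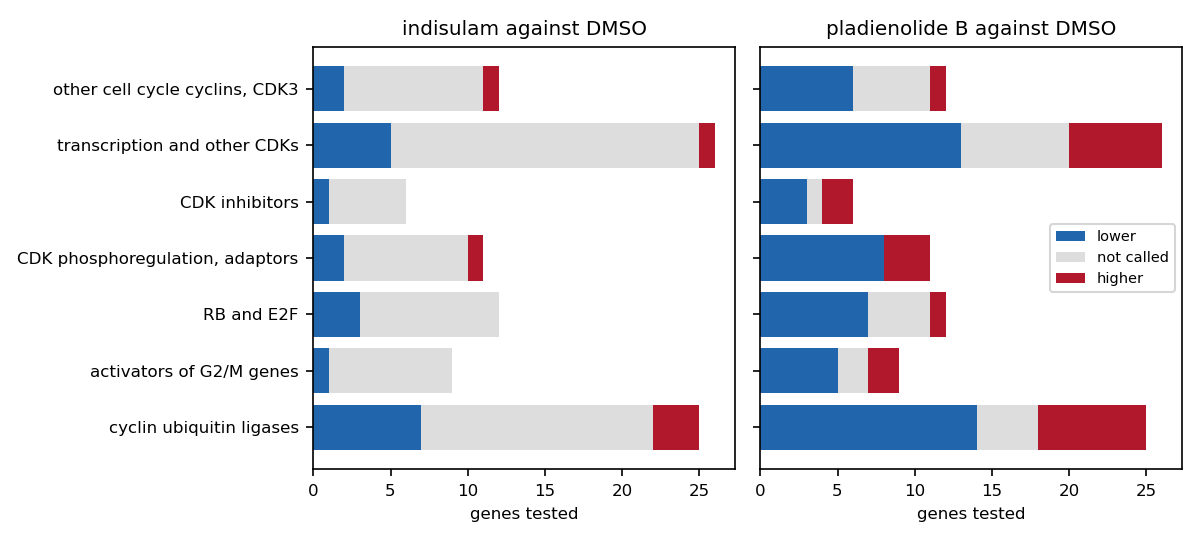
Number of genes tested (horizontal axis) in each list of CDK control genes that were lower, not called or higher (limma adjusted p under 0.05) with indisulam on the left and pladienolide B on the right, as deposited. With pladienolide B all 11 genes of CDK phosphoregulation and adaptors were called, 8 of them lower, and with indisulam 3 of them were.

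Markers of other cell types were measured alongside. Of 5 leukocyte markers 3 were tested and 2 of these rose with pladienolide B; their summed level was 6679 to 7652 in DMSO, 7456 to 7973 with indisulam and 11602 to 15011 with pladienolide B. CD68 made up most of it. The 9 luminal and hormone receptor markers summed to 20707 to 23549 in DMSO and 22644 to 23540 with pladienolide B, with 3 of 5 tested higher, and the 6 fibroblast and endothelial markers to 889 to 1229 and 887 to 1466, with 1 higher and 1 lower of 4 tested. Of 7 mesenchymal markers 6 were tested and all 6 rose with pladienolide B, and TWIST2 was at 0. These counts and sums are as deposited, where 34.3% of all genes were higher with pladienolide B and 35.5% lower. They were not repeated under other scalings, and with the same total per library the median of all genes was −0.48. The part of these markers in the results above was not tested.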

How the data were processed

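The deposited table holds a signal per feature, read counts that the authors divided by 1 DESeq2 size factor per library, as its name and the submitters' processing notes say, which also name STAR 2.7.5a and hg38. Neither how reads were counted nor whether strand was used is given in the sources used here. In each library 100% of values were whole multiples of the value of 1 read (tolerance 0.01), so whole reads were recovered. In pladienolide B replicate 1, where 1 read is worth 1.00, this held for 100% of the 12079 values over 100, of which 1.81% were whole numbers. The 9 library columns were matched to samples by name, and 0 other columns held values. Differences were fitted with limma 3.58.1 in R 4.3.3 to log2(value + 1), a scale that understates changes of low genes. Group means of the 9 libraries shared 1 variance estimate per gene, moderated towards its trend with mean level, and two-sided p-values were adjusted by Benjamini-Hochberg over 16846 features with a mean of at least 10. The fit was tested on simulated data in which few genes changed, in equal numbers up and down. A change of most genes, as with pladienolide B, was not simulated. edgeR 4.0.16 (quasi-likelihood) and DESeq2 1.42.0 on recovered reads were alternatives. No libraries of a group agreed within sampling noise (lowest chi-square per gene 8.63). The members and the lists were chosen with earlier results of these data known. Named are the 9 members, up to 2 called genes per list, drug and direction with the largest change (where none was called, the highest mean), and for each member the closest 2 profiles, printed for 4 members. Of 133 list entries, 130 matched a feature. Intervals cover the spread between libraries only.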

Additional observations from a re-analysis of the deposited data

How the results depend on the processing

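For pladienolide B the counts moved most with the scaling between libraries. With the same total per library 1 member was higher and 7 lower with pladienolide B against indisulam, and 1 higher against DMSO; over all genes 2733 rose and 9086 fell against DMSO (5776 and 5976 as deposited, 23.1% against 49.1% higher among the called), and 3013 rose and 8496 fell against indisulam (26.2% against 49.3% higher). For indisulam the higher genes made up 53.8% of the called as deposited, 42.9% with TMM and 40.3% with the same total. With quantile normalisation 1 member was higher with pladienolide B against indisulam, where 37.3% of all genes were higher. CCND1 turned with the same total to −0.20 against DMSO and −0.26 against indisulam, and with quantile normalisation to −0.14 and −0.23. CDK1 turned with the same total to −0.043 and −0.11, where the medians of all genes were −0.48 and −0.40. Small values that had not passed also turned. CCNB1 with indisulam was at −0.014 with TMM and with edgeR, −0.025 with the same total, −0.024 with quantile normalisation, and −0.025 to 0.091 with 1 library left out. CDK2 with quantile normalisation was at 0.029 for pladienolide B against DMSO and 0.048 against indisulam, and for indisulam against DMSO at −0.037 to 0.034 with 1 library left out. CCND3 between the drugs was at 0.011 with quantile normalisation, 0.00089 with DESeq2 and −0.023 to 0.034 with 1 library left out. The quantile-normalised ratios were added after seeing the data, and CCNB2 to CCNB1 with pladienolide B against DMSO turned to 0.25. Between the drugs CCND3 to CCND1 turned from −0.16 to 0.25 and CDK2 to CDK1 from −0.40 to 0.0034. For indisulam the 3 member calls held under the 4 scalings. Leaving out 1 library gave 0 to 1 member higher and 1 to 2 lower with indisulam, where over all genes 1565 to 2982 rose. Against DMSO it gave 3 higher and 4 to 5 lower with pladienolide B, and against indisulam the CCND1 call was lost in some of these fits, as given above. No label ties a replicate number to a batch or day. Libraries with the same number correlated in their deviations from group means at 0.00 to 0.13, above 0.1 in 3 of 9 pairs. Libraries of different groups and numbers correlated at −0.12 to 0.04. In both other groups, 7 of 9 libraries correlated best with their own number. Whether the numbers mark a shared batch was not tested. With the replicate block 2 members were higher with indisulam, CDK6 being added (adjusted p = 0.0437), and 3548 genes rose. The causes of these differences were not tested. The further alternatives (the pseudocount, the filter, edgeR, DESeq2, only the groups compared) kept each count of members called within 1.5 times; all were run. Counting error and the spread between libraries were not compared for the members.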
